A study of Mus musculus with 13 samples.

Results

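The genes described here encode the synaptonemal complex, the protein ladder that holds paired homologous chromosomes together in meiosis, and the HORMA-domain proteins that sit on the chromosome axis before pairing. They were chosen by name, 10 of the 20662 gene symbols in each of the 2 deposited spermatogonial tables. All 10 were found, with Syce3 listed under its older symbol 1700007E06Rik. They are the lateral element genes Sycp2 and Sycp3, the transverse filament gene Sycp1, the central element genes Syce1, Syce2, Syce3 and Tex12, the axis genes Hormad1 and Hormad2, and Trip13, which encodes the ATPase that strips HORMA proteins from the axis.

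The study sequenced ribosomal-RNA-depleted, directional RNA libraries of germ cells from the testes of C57BL/6 mice aged 8 weeks. The mice were wild type, and no treatment is given. The design text speaks of quadruplicates, but each spermatogonial group has 1 table, and whether it pools samples is not stated. Of the 13 samples in the series, 2 are analysed here, both with the cell type given as spermatogonia, the mitotic and premeiotic germ cells. They are titled KIT_AGSC and THY1_AGSC, after KIT, the stem cell factor receptor found on differentiating spermatogonia, and THY1, a surface antigen by which undifferentiated ones are enriched. The other 11 samples (5 of spermatocytes, 5 of spermatids and 1 of mature sperm) are not analysed here. No replicate check exists with a single library on each side, so every comparison is between 2 libraries, not between conditions, and it carries no p-value. How many animals gave each sample is not given in the sources used here.

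As background, a chromosome axis of cohesin, SYCP2 and SYCP3 forms along each homologue in early meiotic prophase, with HORMAD1 and HORMAD2 bound to it. SYCP1 then spans the gap between the 2 axes, and the central element proteins SYCE1, SYCE2, SYCE3 and TEX12 join the SYCP1 molecules in the middle. Where axes have synapsed, TRIP13 removes the HORMA proteins, and axes that stay unsynapsed keep them and their chromatin is silenced. In mouse testis most of these genes are switched on around meiotic entry and are known as markers of spermatocytes, while TRIP13 also acts in mitotically dividing cells.

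The titles and the tables name the libraries in opposite ways. Values for the KIT title stand under the heading Thy1, and those for the THY1 title under the heading Kit. The antigen transcripts went with the headers: Kit was listed at 0 in the KIT-labelled library and stood at 36.7 FPKM (fragments scaled by transcript length and sequencing depth) in the THY1-labelled library, and Thy1 stood at 78.8 and 0.723 FPKM. Titles are followed throughout, as the KIT-labelled and THY1-labelled libraries, and every direction would turn if they were exchanged. A rough measure of depth also differed, in that FPKM multiplied by transcript length at the low end (percentile 5 of values above 0, taken over genes annotated with 1 transcript of over 1000 bases) was 2735 in the KIT-labelled library and 427 in the THY1-labelled library, 6.41 times apart. That figure, called the low-end value below, serves as a rough measure of the smallest signal a library could register. Genes listed at exactly 0 made up 33.2% and 24.2% of the tables. A listed 0 can be a failed estimate or a level too low to register, so no fold is given against it. Sdhd, a respiratory chain gene that most cells use, was listed at 0 in the KIT-labelled library and at 2.04 FPKM in the other. Which of these holds for a given gene was not tested.

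Promoter sequences are shown for 6 genes, because they hold the E2F6 or the MYB motif in the window shown or, for Syce1, because that gene had the largest difference among the genes above 0 in both libraries and no match to any motif searched. They come from RefSeq (build GRCm38.p6), which held a promoter for all 10 genes and 13 promoters in all. Each line gives the 150 bases before an annotated start site, 5′ to 3′ along the gene's strand. Capitals mark the E2F6 motif GCGGGAA in the first 4 sequences and the MYB motif AACCGTT in that of Sycp1, with none in that of Syce1. Syce2 has 2 annotated start sites, and the sequence is that of the second listed; for Hormad1 it is that of the first.
Sycp3, chr10:88459437-88459586, plus strand: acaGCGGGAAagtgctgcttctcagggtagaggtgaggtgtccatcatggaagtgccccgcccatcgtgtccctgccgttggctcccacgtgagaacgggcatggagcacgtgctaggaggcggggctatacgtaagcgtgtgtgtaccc
Syce2, chr8:84872108-84872257, plus strand: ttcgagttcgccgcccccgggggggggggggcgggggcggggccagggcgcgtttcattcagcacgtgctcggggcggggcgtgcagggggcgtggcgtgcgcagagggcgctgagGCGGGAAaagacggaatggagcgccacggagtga
Tex12, chr9:50561269-50561418, minus strand: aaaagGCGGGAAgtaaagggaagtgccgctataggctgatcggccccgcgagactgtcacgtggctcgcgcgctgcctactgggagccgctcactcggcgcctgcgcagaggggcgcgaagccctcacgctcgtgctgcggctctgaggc
Hormad1, chr3:95559527-95559676, plus strand: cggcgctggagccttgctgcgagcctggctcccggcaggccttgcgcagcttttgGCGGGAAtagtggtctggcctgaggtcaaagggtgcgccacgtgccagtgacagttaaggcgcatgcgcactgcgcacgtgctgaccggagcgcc
Sycp1, chr3:102936101-102936250, minus strand: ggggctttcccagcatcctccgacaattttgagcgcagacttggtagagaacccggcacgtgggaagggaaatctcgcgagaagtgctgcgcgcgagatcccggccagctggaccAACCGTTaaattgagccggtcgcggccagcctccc
Syce1, chr7:140787855-140788004, minus strand: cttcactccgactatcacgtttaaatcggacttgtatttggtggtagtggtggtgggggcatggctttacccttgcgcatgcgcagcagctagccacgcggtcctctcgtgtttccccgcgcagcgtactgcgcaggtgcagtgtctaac

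E2F6 is a repressor known to keep meiotic genes off in somatic cells. Its motif, searched on both strands of the 300 bases from 250 before to 50 after each start site, was in a promoter of 4 of the 10 genes (Sycp3, Syce2, Tex12 and Hormad1) against 5.29% of 27018 genes. The MYB motif, of the family that includes the spermatocyte activator encoded by Mybl1, was in that of Sycp1 alone, against 1.05% of all genes. The motif CNCCTCAG, known for the meiotic entry factor STRA8, was in promoters of 4 (Sycp1, Syce2, Tex12 and Hormad2) against 9.12%, and in Syce2 it overlapped the E2F6 motif. A GC box (GGGCGG) was in promoters of 6 against 38.2%. The letters of a TATA box (TATAAA) were only in a promoter of Syce3 against 15.7%, in reverse orientation and 140 bases before the start site. CpG dinucleotides numbered 10 to 34 per 300 bases with a median of 18.5 (for genes with several promoters, the largest count), against a median of 8 over all genes. The lowest, Sycp2 at 10, exceeded only 56.5% of all promoters. The other Syce3 promoter, left out by taking the largest count, had 5 and exceeded 38.0%. A match is a run of letters and not evidence of binding.

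Each of the 10 genes had its higher value in the THY1-labelled library, the one whose value column is headed Kit. Their summed level was 1020 FPKM there against 165 FPKM in the KIT-labelled library, and the median gene stood at 62.0 against 3.06 FPKM. On the log2(FPKM + 1) scale, which understates the change of low genes, 9 stood at least 2-fold higher in the THY1-labelled library, none in the KIT-labelled library, and Trip13 lay within 2-fold. Of the 15573 genes that reached 1 FPKM in either library, the same size of difference was met by 41.1% towards the THY1-labelled library and by 39.5% towards the KIT-labelled library. All 10 passed that minimum, and genes that did are called usable below. At 4-fold, 6 of the 10 genes were higher in the THY1-labelled library and none in the KIT-labelled library, against 29.4% and 23.8% of all genes. Tex12 and Hormad1, listed at 0 in the KIT-labelled library, passed the minimum only through the other library and are counted at both sizes. Of the 8 genes above 0 in both libraries, 7 were at least 2-fold higher in the THY1-labelled library, against 33.9% of all genes above 0 in both. The median difference over the 10 genes, labelled KIT minus labelled THY1, was -3.09 on the log2 scale, against 0.0 over all genes tested. These are counts in 2 libraries, and the genes are not replicates. In bulk RNA, fewer cells of a type and less RNA per cell cannot be told apart.

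**Figure D1:**
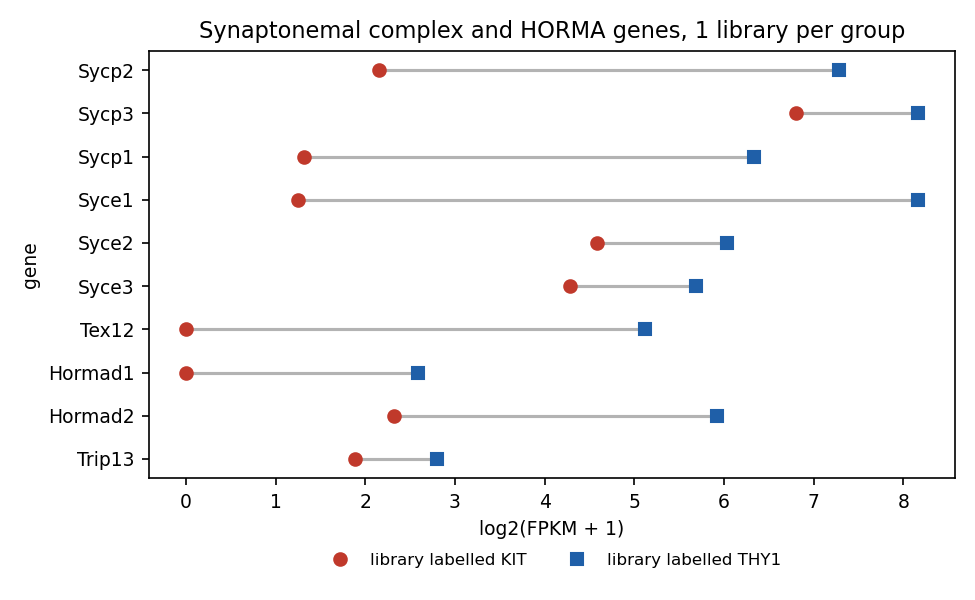
Level of each gene on the log2(FPKM + 1) axis in the KIT-labelled library (circles) and the THY1-labelled library (squares), joined by a line, with 1 library per group and so no error bars. All 10 squares lie to the right of their circles, the lines of Syce1, Sycp2 and Sycp1 are long, that of Trip13 is the shortest, and Tex12 and Hormad1 are listed at 0 in the KIT-labelled library.

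Of the marker lists of other cells, those of pachytene spermatocytes and Leydig cells mostly had higher values in the same library as the 10 genes, and those of spermatids mostly in the other. Over all genes, 41.1% were 2-fold higher in the THY1-labelled library and 39.5% in the other, and each marker list is too small to set against these shares. Usable markers at 0 in the KIT-labelled library passed the minimum only through the other library and are counted. Of 8 markers of pachytene spermatocytes, the stage at which the complex is fully formed, 6 were at least 2-fold higher in the THY1-labelled library. Hspa2 was higher in the other (12.2 against 0.891 FPKM) and Pgk2 lay within 2-fold. The 8 summed to 7870 FPKM in the THY1-labelled library, with Crisp2 at 4082 and Meig1 at 2410 FPKM. In the KIT-labelled library they summed to 99.3 FPKM, with Adam2 and Tex101 listed at 0. Of 5 Leydig cell markers, 4 were higher in the THY1-labelled library and Star lay within 2-fold (6300 against 141 FPKM summed, with Hsd3b6 and Hsd17b3 at 0 in the KIT-labelled library). Of 8 spermatid markers, 6 were higher in the KIT-labelled library and 2 in the other (4950 against 834 FPKM summed, with Spaca1 at 0 in the KIT-labelled library). Markers of undifferentiated spermatogonia, a list that includes Thy1, mostly ran against the titles and with the column headers. Of 9, 5 of 6 usable ones were higher in the KIT-labelled library, beside 39.5% of all genes, and are also too few to set against it. They summed to 259 against 9.39 FPKM over the 9, of which Thy1, already used above to check the labels, gave 78.8 and 0.723 FPKM. Gfra1 and Id4 were low, at 3.91 and 3.75 FPKM in the KIT-labelled library. Zbtb16 and Lin28a were listed at 0 in both libraries and Etv5 in the KIT-labelled library. Of 7 markers of differentiating spermatogonia, a list that includes Kit, 4 were higher in the THY1-labelled library (157 against 43.4 FPKM summed). These are too few genes to set against the 41.1% of all genes. The other 3, Sohlh1, Dmrtb1 and Ccnd2, lay within 2-fold, with the higher value in the KIT-labelled library. Kit, Sohlh2 and Elmo1 were at 0 in the KIT-labelled library. The part of spermatocytes, spermatids or Leydig cells in the levels of the 10 genes was not tested.

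Other somatic markers were mixed, in lists likewise too small to set against the shares over all genes. Sertoli cell markers summed to 874 FPKM in the THY1-labelled library and 19.8 FPKM in the KIT-labelled library, with 3 of 6 higher in each and none at 0, and Clu alone was at 848 and 1.62 FPKM. The 3 usable peritubular markers were higher in the KIT-labelled library (180 against 49.3 FPKM summed over 5, with Des at 0 in both). Of 5 macrophage markers, only C1qb was higher in the KIT-labelled library (119 against 16.0 FPKM), 2 in the other and 2 within 2-fold. C1qb made up most of their sum in the KIT-labelled library (151 FPKM, against 77.8 FPKM in the other). Of 6 T lymphocyte markers, 4 were higher in the KIT-labelled library and 1 in the other (51.8 against 14.7 FPKM summed, with Cd3e at 0 in the THY1-labelled library).

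The lateral element genes stood apart from each other. Sycp3, which encodes the main filament-forming protein of the axis, was at 111 FPKM in the KIT-labelled library and 286 FPKM in the THY1-labelled library. It had the highest level of the 10 genes in both libraries, above 96.5% and 98.8% of all listed genes. Its difference was -1.36 on the log2(FPKM + 1) scale, a ratio of 2.58. Sycp2, which encodes its axis partner, was at 3.44 and 154.8 FPKM, a difference of -5.13 and a ratio of 45.1. The level of Sycp3 over that of Sycp2 was therefore 32.3 in the KIT-labelled library and 1.85 in the THY1-labelled library. Without Sycp3 the other 9 genes summed to 54.4 FPKM in the KIT-labelled library and to 739 in the THY1-labelled library, a ratio of 13.6 in place of 6.20 with it.

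The Sycp3 value is uncertain because its exons overlap another gene. In the GENCODE M21 annotation 660 of its 1264 exonic bases (52.2%) are shared with Chpt1, a choline phosphotransferase gene on the opposite strand, or 408 of 1169 bases between the longest coding transcripts. Chpt1 ran the other way, at 438 FPKM in the KIT-labelled library and 92.9 FPKM in the THY1-labelled library. The libraries were directional, but whether strand was used in the counting is not given in the sources used here. Without strand, reads from the shared bases cannot be told apart, and the part of Chpt1 in the Sycp3 level was not tested.

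Sycp1, the transverse filament gene, was at 1.48 FPKM in the KIT-labelled library and 79.8 FPKM in the THY1-labelled library. That is a difference of -5.02, lower than that of all but 5.48% of the genes tested, and a ratio of 53.7. The level of Sycp2 over that of Sycp1 was similar in both libraries, at 2.31 and 1.94. A processed pseudogene of Sycp1 that is also in the tables, Sycp1-ps1, singled out after its value was seen, showed the reverse order. It was at 27.1 FPKM in the KIT-labelled library and 5.47 FPKM in the THY1-labelled library, a difference of 2.12. In the KIT-labelled library the pseudogene thus stood 18.3 times above its parent, and in the THY1-labelled library the parent stood 14.6 times above it. Their GENCODE transcripts were 92.4% identical over 2788 aligned positions, and 125 of the 2719 windows of 50 bases in the pseudogene (4.60%) occur unchanged in Sycp1. Summed, the pair stood at 28.6 and 85.3 FPKM. How reads with several alignments were treated is not given in the sources used here, so the split between the pair is uncertain.

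The 4 central element genes had unlike values in the KIT-labelled library. Syce1 was at 1.37 FPKM in the KIT-labelled library and 285 FPKM in the THY1-labelled library, where Sycp3 stood at 286 FPKM, while in the KIT-labelled library Sycp3 was 80.8 times above it. The difference of Syce1 was -6.91 on the log2(FPKM + 1) scale, the largest of the 8 genes above 0 in both libraries, with a value in the KIT-labelled library at only 0.732 times the low end. Of all genes tested, 1.12% had a lower one. Tex12, whose protein forms a fibrous assembly with SYCE2, was listed at 0 in the KIT-labelled library and stood at 33.7 FPKM in the THY1-labelled library. Syce2 itself was at 23.0 and 64.5 FPKM, a difference of -1.45 and a ratio of 2.81. Syce3, the gene of a small protein needed to load the other central element proteins, was at 18.4 and 50.4 FPKM, a difference of -1.41 and a ratio of 2.74. Because a listed 0 can be a failed estimate, no order of Tex12 and Syce2 was read in the KIT-labelled library. The level of Syce1 over that of Syce2 was 0.0597 there against 4.42 in the THY1-labelled library.

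Of the axis genes, Hormad2 was at 3.99 FPKM in the KIT-labelled library and 59.5 FPKM in the THY1-labelled library, a difference of -3.60 and a ratio of 14.9. Hormad1, whose protein recruits the machinery that makes meiotic DNA breaks, was listed at 0 in the KIT-labelled library and at 4.99 FPKM in the THY1-labelled library. It was the lowest of the 10 genes in that library, with Hormad2 11.9 times above it. Trip13, which also works on mitotic spindle checkpoint proteins in dividing cells, was at 2.69 and 5.96 FPKM, a difference of -0.92 and a ratio of 2.22. Ordered by level in the THY1-labelled library, the genes ran Sycp3, Syce1, Sycp2, Sycp1, Syce2, Hormad2, Syce3, Tex12, Trip13 and Hormad1, and in the KIT-labelled library Sycp3, Syce2, Syce3, Hormad2, Sycp2, Trip13, Sycp1 and Syce1, with Tex12 and Hormad1 at 0. With 1 library each, it is not known which neighbours in these orders differ beyond replicate spread.

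Grouped after the values were seen, the ratios of the THY1-labelled library over the KIT-labelled library fell into 2 ranges. Trip13, Sycp3, Syce3 and Syce2 had ratios of 2.22 to 2.81, and Hormad2, Sycp2, Sycp1 and Syce1 had ratios of 14.9 to 208. As a share of the summed level of the 10 genes, Sycp3 made up 67.1% in the KIT-labelled library and 27.9% in the THY1-labelled library, while Syce1 made up 0.831% and 27.8%. After scaling both libraries to the same upper quartile, Trip13, Sycp3, Syce3 and Syce2 lay within 2-fold.

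**Figure D2:**
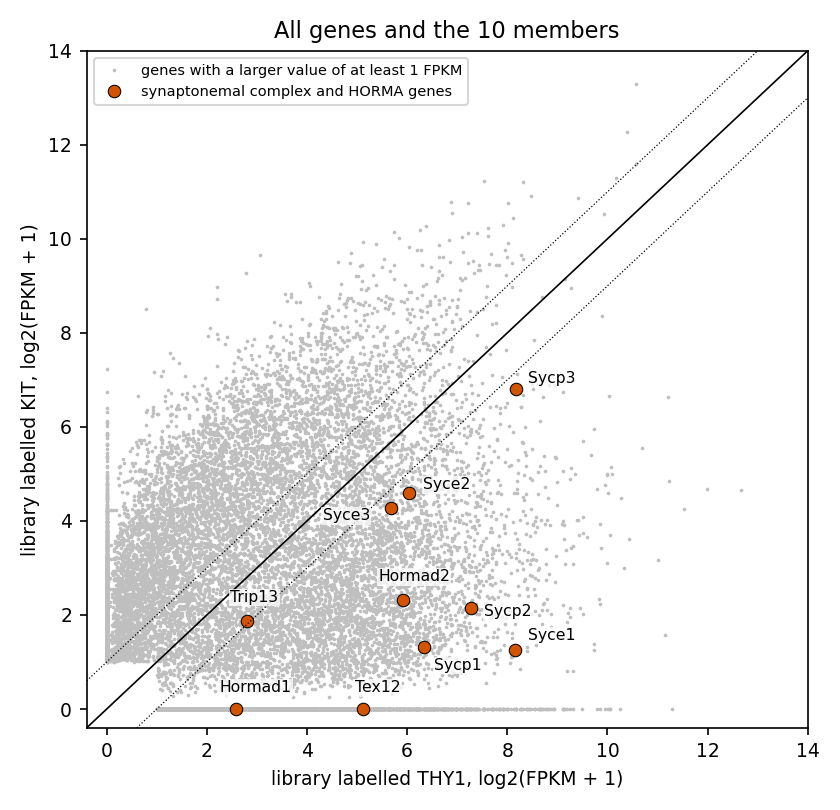
Each grey point is 1 of the 15573 genes that reached 1 FPKM in either library, by its log2(FPKM + 1) in the THY1-labelled library (horizontal) and KIT (vertical); the solid line marks equal values, the dotted lines 2-fold, and Rpph1 lies outside the axes, which end at 14. All 10 named genes lie below the solid line, Trip13 between the dotted lines, and Hormad1 and Tex12 on the horizontal axis among other genes listed at 0 in the KIT-labelled library.

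The signal behind several of the lower values was thin. Multiplied by the longest coding transcript of each gene, the level of Syce1 in the KIT-labelled library was 0.732 times that library's low-end value. On the same measure Sycp1 was at 1.87, Hormad2 at 2.87, Syce3 at 3.23, Trip13 at 3.34, Sycp2 at 7.18, Syce2 at 14.2 and Sycp3 at 47.4 times the low-end value. In the THY1-labelled library the 10 genes ranged from 17.7 times for Hormad1 to 2070 times for Sycp2. Had Hormad1 its level of 4.99 FPKM in the KIT-labelled library, it would stand at 2.76 times the low-end value there, so a difference for Hormad1 was hardly detectable at this depth. The same figure was 12.4 for Tex12 and 152 for Syce1, well above the low end. The ratios of Syce1, Sycp1, Hormad2, Syce3 and Trip13 thus have a denominator near the low end, and their size is loosely set.

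**Figure D3:**
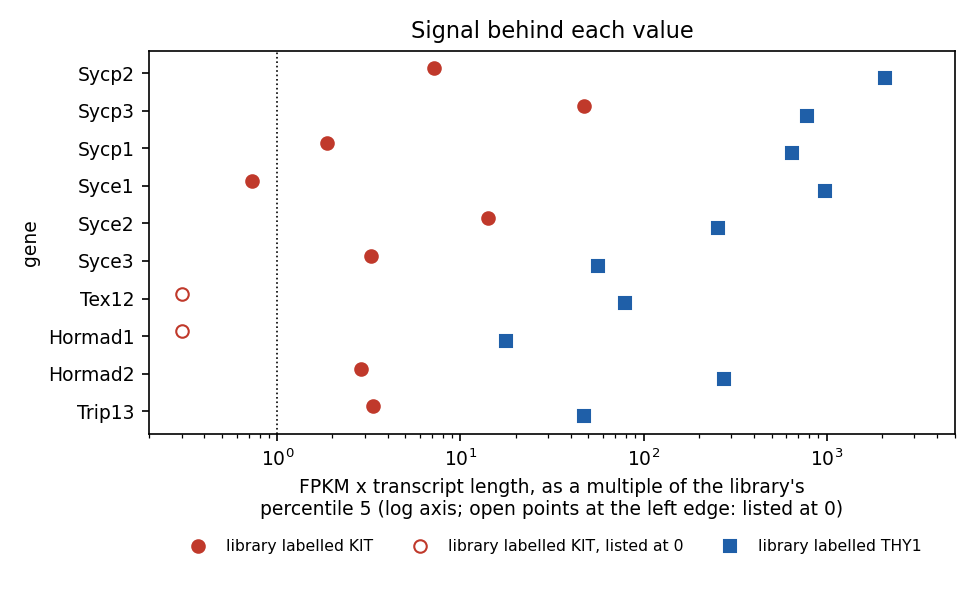
FPKM multiplied by the longest coding transcript length, as a multiple of each library's low-end value (log axis, dotted line at 1), for the KIT-labelled library (circles) and THY1 (squares); open circles at the left edge are genes listed at 0. In the KIT-labelled library most genes lie under 10 times the low end and Syce1 lies below 1, while all squares lie at 17.7 or above.

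Other genes of the pathway were then described, from lists chosen with earlier results of these data known. Of 66 listed genes, 60 were in the tables and 59 reached 1 FPKM in a library; 42 of these (71.2%) were at least 2-fold higher in the THY1-labelled library, 8 in the KIT-labelled library and 9 within 2-fold, beside 41.1% and 39.5% of all genes. The median difference was -1.87, and 13 of the 60 were listed at 0 in the KIT-labelled library against 2 in the THY1-labelled library. Usable genes at 0 in a single library passed the minimum only through the other library and are counted. No count without them was made. Each list below stands beside the same 41.1% and 39.5% of all genes, and is too small for its share to be read alone. The shares over these lists were not tested. After scaling the libraries to the same upper quartile, 34 of the 59 (57.6%) were 2-fold higher in the THY1-labelled library and 10 in the other, beside 36.1% of all genes in the former direction, and after scaling to a median ratio of 1 the counts were 44 and 6 (74.6%, beside 46.3%). These scalings of the lists were added after seeing the data.

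The genes closest to the complex stood with its members. Of 6 partner genes, 5 stood at least 2-fold higher in the THY1-labelled library, none in the other, and Plk1 lay within 2-fold. After scaling to the upper quartile 4 were higher there and 2 within 2-fold, and after scaling to a median ratio of 1 all 6 were higher. Fkbp6 is counted though it passed the minimum only through the THY1-labelled library. Six6os1 (listed as 4930447C04Rik), the gene of a further central element protein, was at 1.97 and 63.9 FPKM, the ubiquitin ligase adaptor Skp1a at 14.1 and 244.7 FPKM, and Fkbp6 at a listed 0 and 43.6 FPKM (labelled KIT first). All 4 meiotic cohesin genes, which build the axis that SYCP2 and SYCP3 coat, were higher by 2-fold or more in the THY1-labelled library, or 3 of them after scaling by the sum without Rpph1 or by the upper quartile. Among them Stag3 was at 1.24 and 203 FPKM, Smc1b at 3.43 and 146 FPKM and Rad21l (listed as Gm14160) at a listed 0 and 17.0 FPKM, whereas Rec8 was at 17.0 and 36.6 FPKM, the smallest difference of these 4.

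Genes of the break machinery that gathers on the axis did not share one direction. Of 4 usable genes, each library held the higher value of 2, by at least 2-fold (1 in the THY1-labelled library after scaling to the upper quartile). Iho1 (Ccdc36), whose protein binds HORMAD1, was at 46.0 FPKM in the KIT-labelled library against 5.98, and Rec114 (2410076I21Rik) at 203 against 5.80 FPKM. Spo11, the gene of the break-making enzyme, was the reverse at 3.80 against 53.0 FPKM. Hormad1 itself was at a listed 0 and 4.99 FPKM, too near the low end for an order to be set beside that of Iho1.

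Of 9 genes of crossover formation and synapsis initiation, 6 were at least 2-fold higher in the THY1-labelled library and 2 in the KIT-labelled library. For this list and those that follow in this paragraph, the shares over all genes were 41.1% and 39.5%. Tex11 (47.5 FPKM), Prr19 (19.1 FPKM) and the helicase gene Hfm1 (17.1 FPKM) were listed at 0 in the KIT-labelled library, while the cyclin-like Cntd1 was at 419 FPKM there against 128. Silencing of unsynapsed chromatin, for which the HORMA proteins are needed, was covered by 8 genes, 6 of them higher in the THY1-labelled library and 1 in the KIT-labelled library. The kinase gene Atr was at 5.37 and 111 FPKM, the adaptor Mdc1 at 5.85 and 42.3 FPKM, and the polycomb-related Scml2 at a listed 0 and 8.11 FPKM (labelled KIT first). Tethering of chromosome ends to the nuclear envelope for pairing was covered by 7 genes. Of these, 3 were higher in the THY1-labelled library, 1 in the other and 3 within 2-fold. The count towards the THY1-labelled library was thus near the share over all genes. After scaling to the upper quartile, 2 were higher in each. Kash5 (Ccdc155) was at a listed 0 and 73.5 FPKM, Sun1 at 3.96 and 59.1 FPKM, Terb2 (4933406J08Rik) at 6.04 and 1.65 FPKM, and Spdya at 83.8 and 80.5 FPKM.

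HORMA relatives and TRIP13 partners outside the meiotic axis had differences in both directions. Of 5 genes, 2 had a value at least 2-fold higher in the KIT-labelled library, 1 in the THY1-labelled library and 2 within 2-fold, beside 39.5% and 41.1% of all genes, too few to set against those shares. Mad2l2, of translesion synthesis, was at 15.2 and 129 FPKM, the autophagy gene Atg101 (9430023L20Rik) at 11.3 and 3.08 FPKM, and Mad2l1bp, the adaptor that brings TRIP13 to its checkpoint substrate, at 9.35 and 7.14 FPKM (labelled KIT first). Mad2l1, of the spindle checkpoint, was at 3.29 FPKM in the KIT-labelled library and listed at 0 in the other.

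Regulators of the meiotic programme, activators and repressors alike, were mostly at higher values in the THY1-labelled library. Of 8 regulators of meiotic entry, 7 were at least 2-fold higher there, none in the other, and Sohlh1 lay within 2-fold. Stra8 was at 0.743 and 34.1 FPKM, Mybl1 at 1.06 and 40.1 FPKM, Ythdc2 at 1.13 and 18.5 FPKM and Meioc (Gm1564) at 6.96 and 42.5 FPKM (labelled KIT first). All 8 repressors of the meiotic programme were at least 2-fold higher in the THY1-labelled library too, and 6 of them after scaling to the upper quartile. E2f6, whose motif is shown above in 4 promoters, was at a listed 0 and 16.8 FPKM, its partner Mga at 2.46 and 26.7 FPKM, the polycomb gene Rnf2 at 2.68 and 34.4 FPKM, and the DNA methyltransferase gene Dnmt1 at 15.7 and 39.4 FPKM. Of the 4 genes with the E2F6 motif, Sycp3 and Syce2 had ratios of 2.58 and 2.81, and for Tex12 and Hormad1, listed at 0 in the KIT-labelled library, no ratio can be given.

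**Figure D4:**
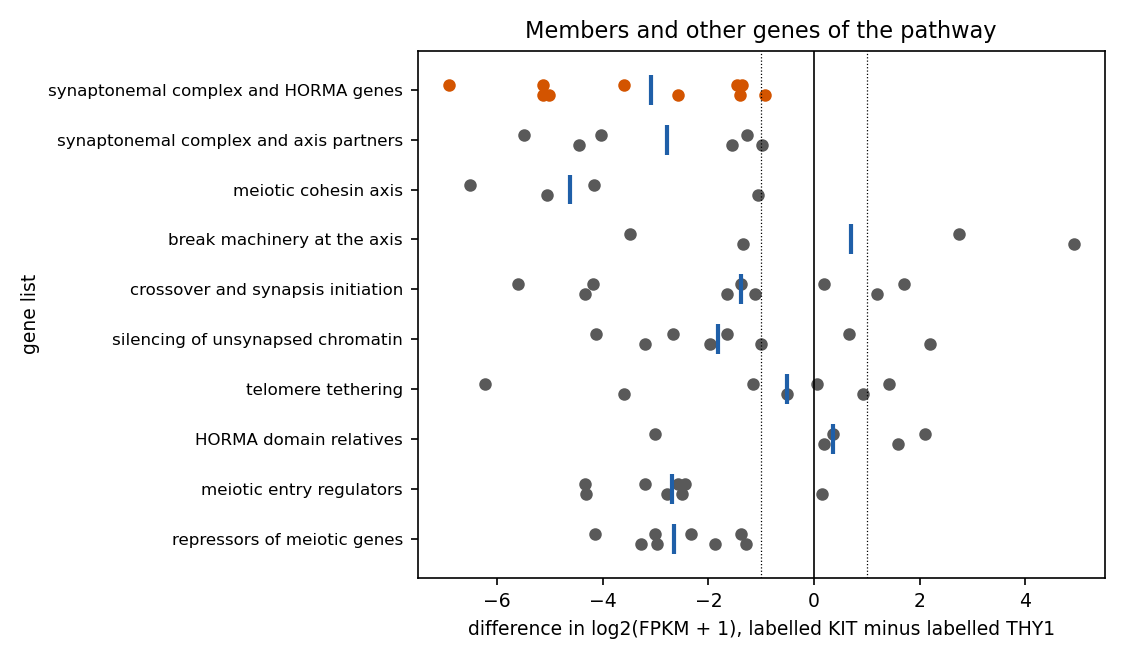
Difference in log2(FPKM + 1), labelled KIT minus labelled THY1, for the 10 genes (top row) and for each usable gene of 9 pathway lists; blue bars are medians, dotted lines mark 2-fold, and a gene listed at 0 enters with its value on this scale. All 10 points of the top row are below 0, as are all points of the cohesin and repressor lists, while the break machinery and HORMA relative lists have points on both sides.

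Genes next to these 10 on their chromosomes had differences in both directions. Of 22 usable neighbours (the nearest listed gene on each side in RefSeq order, and overlapping genes), 9 stood at least 2-fold higher in the KIT-labelled library, 6 in the THY1-labelled library and 7 within 2-fold, beside 39.5% and 41.1% of all genes, with a median difference of 0.82. The count towards the KIT-labelled library was thus near the share over all genes. Beside Syce1, Cyp2e1 was at 69.7 and 4.98 FPKM and Urah (1190003J15Rik) at 252.5 and 3.61 FPKM (labelled KIT first), the reverse of Syce1. Besides Chpt1, the overlapping genes were Gcdh, on the strand opposite to Syce2, at 209 and 39.8 FPKM, with no exonic base shared in GENCODE M21, and Il18, at the Tex12 locus in RefSeq, at 3.42 and 20.3 FPKM.

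**Figure D5:**
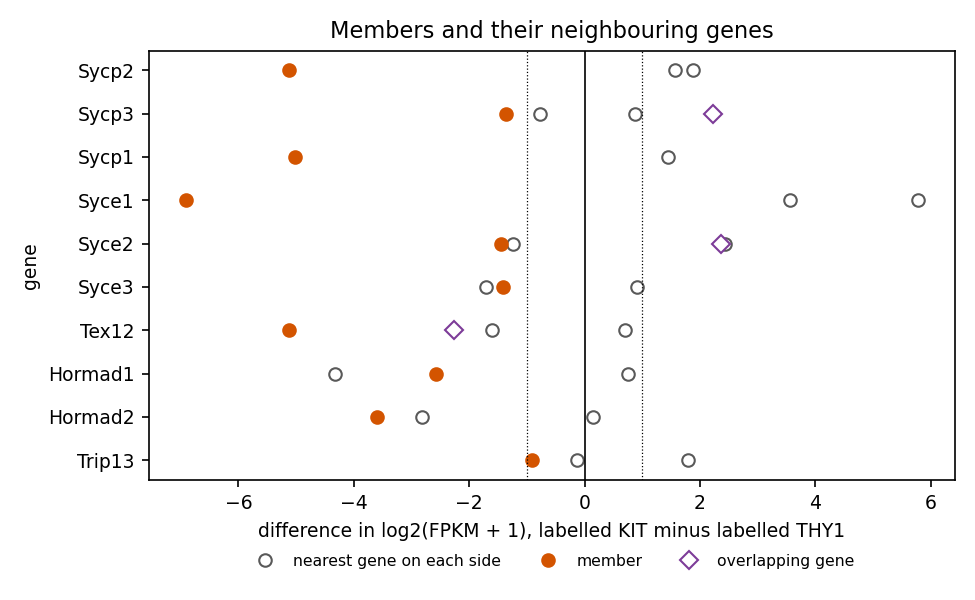
Difference in log2(FPKM + 1), labelled KIT minus labelled THY1, for each of the 10 genes (filled points), the nearest listed gene on each side (open circles, usable genes only) and overlapping genes (diamonds); dotted lines mark 2-fold. The filled points are all below 0, while neighbours lie on both sides and those of Syce1 and Sycp2 lie above 1.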

How the data were processed

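RNA of 2 spermatogonial samples was analysed, with 1 library per group. The deposited tables give 1 decimal value per gene symbol and do not state a unit. They were treated as FPKM computed by the authors, since the submitters' processing notes name Cufflinks 2.1.1, with TopHat 1.4.1, CASAVA and mm9. For annotation, strand use and multiply aligned reads, the sources used here give nothing. FPKM depends on the total, in which 1 noncoding RNA can weigh heavily (Rpph1 made up 71.8% and 37.9% of the summed values, labelled KIT first), which lowers the values of other genes. Total counts per library are unknown.

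Differences were log2(FPKM + 1), labelled KIT minus labelled THY1. Counts at 2-fold cover genes reaching 1 FPKM in either library, and no test was possible. All 10 genes are named, as are, per list, up to 3 genes of at least 5 FPKM with the largest differences and the 1 with the highest mean. Genes named beyond this rule (Plk1, Rec8, Mad2l1, Sohlh1, Dmrtb1, Ccnd2, Hspa2, Pgk2, Star, Clu, neighbours and markers at 0) were chosen after their values were seen. Members, lists and alternatives were chosen with earlier results of these data known. Of the 66 pathway genes, 6 did not match a symbol and are not analysed here. GENCODE M21 gave lengths (89.0% of symbols matched) and exon overlap, RefSeq GRCm38.p6 gave promoters, synonyms and gene order, and no coordinate was converted from mm9. The counting was tested on simulated data with set changes and without zeros or noise, so that test does not cover values near the low end. Python 3.11.15, numpy 2.4.6, pandas 2.3.3 and blastn 2.17.0 were used.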

Additional observations from a re-analysis of the deposited data

How the results depend on the processing

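All 10 genes kept their higher value in the THY1-labelled library under every alternative run that included them, and none was 2-fold higher in the KIT-labelled library. The number at least 2-fold higher in the THY1-labelled library was 9, and ranged from 6 after scaling to the same upper quartile (36.1% of all genes) to 10 with a pseudocount of 0.1 (42.4%) or after scaling to a median ratio of 1 (46.3%). Over the 8 genes above 0 in both libraries it was 7 (33.9%). The number within 2-fold was 1, became 0 with a pseudocount of 0.1 or scaling to the median ratio, and 4 with scaling to the upper quartile. The median difference of -3.09 became -4.66 with a pseudocount of 0.1, -3.46, -2.71 and -2.95 after scaling to the median ratio, the upper quartile and the sum without Rpph1, -3.60 with a minimum of 5 FPKM (9 genes, without Hormad1) and -2.52 over the 8 genes above 0 in both libraries. Those 3 scalings moved the median of all genes by -0.56, 0.56 and 0.22. No paired analysis was possible because each analysed group has 1 library. Leaving out a replicate was not possible for the same reason. Depth limits the values of Syce1, Sycp1, Hormad1, Hormad2, Syce3 and Trip13 in the KIT-labelled library.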
